A study of Mus musculus with 11 samples.

Results

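The genes described here are 9 genes by which dendritic cells and other antigen-presenting cells are recognised, measured in RNA labelled as that of T cells after culture with dendritic cells. They are the class II genes H2-Aa, H2-Ab1, H2-Eb1 and Cd74, the transcription factor genes Ciita and Batf3, the chemokine genes Ccl17 and Ccl22, and the costimulatory gene Cd86. Members were taken as all probe sets whose single gene symbol in the platform annotation is one of these names, which gave 14 probe sets of 20380 with 1 symbol, and 9 genes of 12393. B10.BR T cells had been cultured for 4 days with C57BL/6 dendritic cells of 1 of 4 organs, namely liver, spleen and those that the labels abbreviate as MLN and PLN, and RNA labelled as from the T cells was then hybridised to single-colour oligonucleotide arrays. Liver, MLN and PLN had 3 arrays each, carrying the replicate numbers 2, 3 and 4, and spleen had 2 arrays, numbered 3 and 4. Every group held T cells and dendritic cells of the same 2 strains, no group lacked dendritic cells and none was of dendritic cells alone. The labels do not spell out MLN and PLN, do not say how T cells were separated from the dendritic cells, and do not say what a replicate number marks. Since no label states that the arrays of a group are of different animals or cultures, the p-values cover the array-to-array spread only, and part or all of that spread may be technical.

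Class II molecules present peptides to CD4+ T cells. An alpha and a beta chain, encoded by H2-Aa and H2-Ab1 for I-A and by H2-Ea and H2-Eb1 for I-E, assemble around the invariant chain CD74, which is then cut away by endosomal proteases so that peptide can be loaded. CIITA is the coactivator that switches these genes on together, through a complex of RFX, NF-Y and CREB factors bound to conserved X and Y boxes of their promoters. Dendritic cells carry class II at high levels, and on maturation they display CD86, the ligand of CD28 and CTLA-4, and secrete CCL17 and CCL22, which attract T cells bearing CCR4. BATF3 is needed for the development of cross-presenting dendritic cells. CD86 and BATF3 are also known from activated T cells, so the list is not exclusive to dendritic cells.

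Among the members' promoters, those of H2-Aa and H2-Eb1 are printed. The Y box can be read in both, and letters matching the X box that was searched in H2-Eb1 alone. Whether the boxes bear on the levels was not tested. RefSeq's promoter table for GRCm38.p6 held 5 of the 9 members, H2-Aa, H2-Eb1, Batf3, Ccl17 and Ccl22, each as 250 bases before the start of the gene and 50 after it. H2-Aa lies on the minus strand and its promoter covers chr17:34287774-34288073, and the promoter of H2-Eb1, on the plus strand, covers chr17:34305617-34305916. Both are written 5′ to 3′ along the gene, with matches to the Y box CTGATTGG and to the X box, for which a spaced form with 3 open positions was searched, in capitals. Both strands were searched.
H2-Aa: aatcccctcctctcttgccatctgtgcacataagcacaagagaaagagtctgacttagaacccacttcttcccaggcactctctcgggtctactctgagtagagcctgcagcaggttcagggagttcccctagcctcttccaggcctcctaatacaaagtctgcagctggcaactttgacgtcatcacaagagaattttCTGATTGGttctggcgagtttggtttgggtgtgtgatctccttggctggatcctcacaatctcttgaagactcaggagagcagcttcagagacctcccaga
H2-Eb1: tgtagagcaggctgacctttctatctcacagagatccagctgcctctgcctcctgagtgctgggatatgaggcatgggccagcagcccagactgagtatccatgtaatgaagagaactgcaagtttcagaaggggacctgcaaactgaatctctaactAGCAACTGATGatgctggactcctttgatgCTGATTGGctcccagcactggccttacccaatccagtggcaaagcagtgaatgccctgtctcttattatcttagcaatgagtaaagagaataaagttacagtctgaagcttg
The Y box began 51 bases before the start of H2-Aa and 62 bases before that of H2-Eb1. The X box letters were found in H2-Eb1 alone of the pair, as AGCAACTGATG, 92 bases before its start. Of 32851 promoters of this length, 4.1% held the Y box, 0.968% the X box and 0.0304% both. Neither set of letters was found in the windows of Batf3, Ccl17 or Ccl22. A match is a description of the letters and not evidence of a bound site. Only the spaced form of the X box was searched, and whether the H2-Aa window holds another form was not tested.

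Levels are the deposited intensities as log2(intensity + 16), quantile normalized, and every log2 difference is on that scale, which understates the change of genes of low intensity. One probe set per gene, that of the highest mean, was tested where the gene was among the upper 60% by mean level, which left 7436 genes and 8 of the 9 members. Array medians of the deposited intensities ran from 144.3 to 170.4. Each pair of arrays differed in its values, with correlations between 0.965 and 0.984. All 9 measured T cell markers were among the tested genes, with Cd3e, a chain of the T cell receptor complex, at intensities of 1480.2 to 3680.3. None of the 4 hepatocyte, 6 granulocyte or 2 natural killer cell markers measured reached the tested range. The number of arrays limits the precision.

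Members passed the test between arrays of different replicate number, and none passed it between organs of the dendritic cells in the fit without a block. These 2 fits are unlike, since the organ fit without a block left the differences between numbers in its spread. With the number as a block, 1 member, Batf3, was called in liver, where 2.14% of all tested genes were. That call was lost when any of several arrays was left out. With organ as a term in the fit, 6 of the 8 tested members differed among numbers 2, 3 and 4 in limma's moderated F-test at an adjusted p under 0.05, where 48.1% of all tested genes did. Between arrays numbered 4 and those numbered 3, 7 members fell and none rose. Of all tested genes 43.3% were called in this comparison, 21% lower and 22.3% higher, and the members' median difference was -0.67 where that of all genes was 0.01. H2-Ab1 was the member that did not fall. In RNA from bulk samples such as these, fewer cells of a type and less RNA per cell cannot be told apart. The pairs of numbers share arrays, so their differences are not independent of each other.

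**Figure D1:**
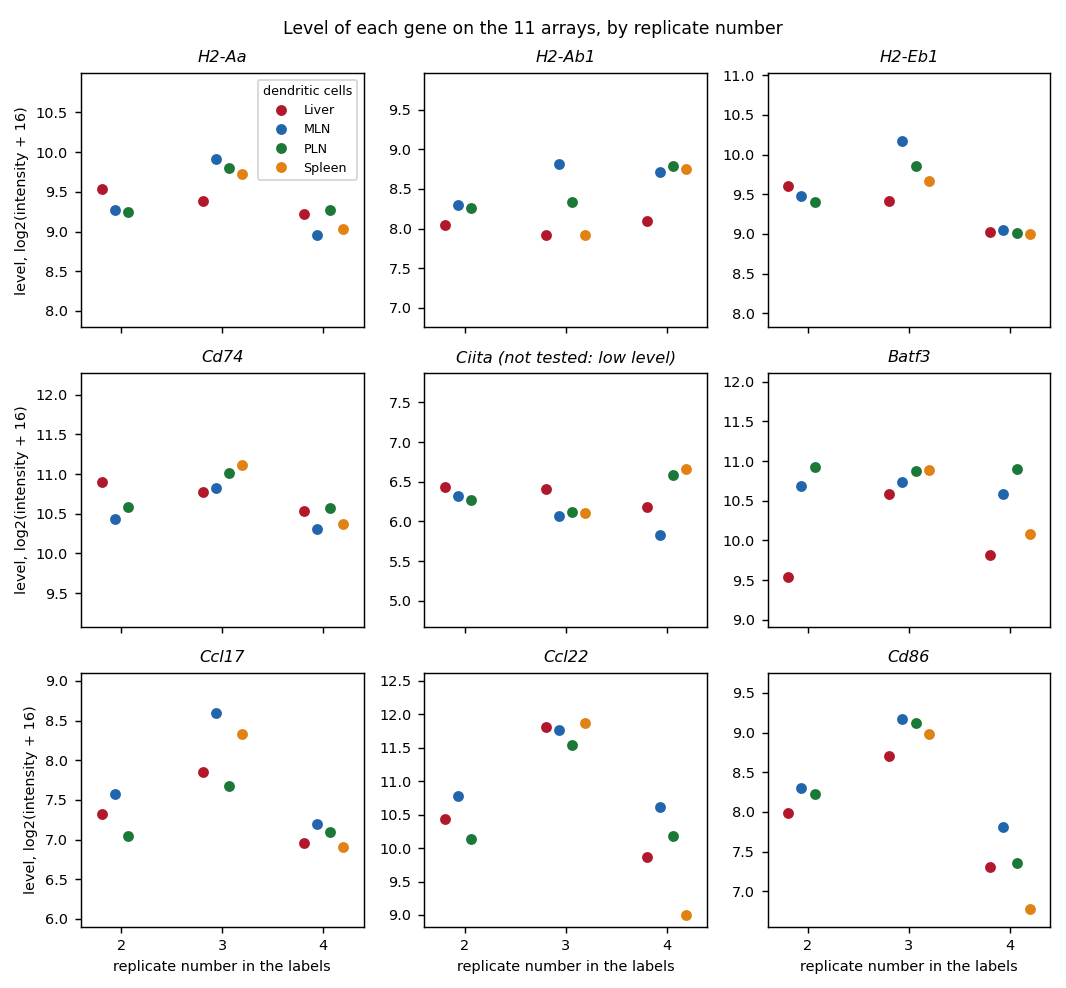
Each panel plots 1 gene's level, log2(intensity + 16), on the 11 arrays against the replicate number in the labels, with a point per array coloured by the organ of the dendritic cells. For Ccl22 and Cd86 the 4 arrays numbered 3 lie above every other array, at 11.54 to 11.86 and 8.70 to 9.17, while H2-Ab1 has no such order. Panels differ in the centre of the vertical axis.

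Class II molecules are taken first, and values are listed in the order liver, MLN, PLN and, for numbers 3 and 4, spleen. The alpha chain gene H2-Aa (chr17:34282744-34287823) had levels of 9.53, 9.27 and 9.25 on arrays numbered 2, of 9.38, 9.91, 9.80 and 9.72 on those numbered 3, and of 9.22, 8.96, 9.27 and 9.03 on those numbered 4. Every array numbered 3 lay above every array numbered 4, and the arrays numbered 2 overlapped both. H2-Aa fell by 0.59 (SE 0.12) from number 3 to number 4, a difference that passed (limma adjusted p = 0.00258). The drop was smallest in liver, -0.16, against -0.96 in MLN, -0.54 in PLN and -0.69 in spleen. The tested probe set of H2-Aa has an ID ending in _x_at, and its dimmer one, like the tested set of H2-Ab1, in _s_at, endings given to sets that can match related sequences. The dimmer set of H2-Aa was at -0.30 and did not pass (limma adjusted p = 0.224, fitted with all probe sets). In that fit the tested set passed (limma adjusted p = 0.00957). The pair of probe sets correlated at r = 0.68 over the 11 arrays.

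H2-Eb1 (chr17:34305867-34316674), the beta chain gene of I-E, had levels of 9.60, 9.48 and 9.40 on arrays numbered 2, of 9.42, 10.17, 9.86 and 9.67 on those numbered 3, and of 9.02, 9.05 and 9.01 on those of liver, MLN and PLN numbered 4. On that scale Spleen replicate 4 was just below them, and the deposited intensities of the arrays numbered 4 were 497.5 in liver, 504.0 in MLN, 504.7 in PLN and 505.1 in spleen. The 4 arrays numbered 4 were the lowest of all 11 and nearly equal, whichever organ the dendritic cells came from, and MLN replicate 3 was the highest. From number 3 to 4 H2-Eb1 fell by 0.76 (SE 0.12), 1.69-fold (limma adjusted p = 0.00036), and it was also lower on number 4 than on number 2, by a difference of -0.45 (SE 0.13, limma adjusted p = 0.0272). Without Liver replicate 2 the difference was -0.29 (limma adjusted p = 0.156), and the second comparison also missed the threshold without MLN replicate 4 (0.107), PLN replicate 2 (0.0564) or PLN replicate 4 (0.069).

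Cd74 (chr18:60803849-60812652), which encodes the invariant chain, had levels of 10.90, 10.43 and 10.59 on arrays numbered 2, of 10.78, 10.83, 11.01 and 11.11 on those numbered 3, and of 10.53, 10.31, 10.57 and 10.37 on those numbered 4. Arrays numbered 3 were again above those numbered 4 without overlap, and Liver replicate 2 stood among the arrays numbered 3. Cd74 fell by 0.49 (SE 0.09) from number 3 to 4, 1.40-fold (limma adjusted p = 0.00135), by amounts of -0.26 in liver to -0.74 in spleen.

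The beta chain gene of I-A did not follow. H2-Ab1 (chr17:34263227-34269418) had levels of 8.05, 8.30 and 8.26 on arrays numbered 2, of 7.92, 8.81, 8.33 and 7.92 on those numbered 3, and of 8.09, 8.71, 8.79 and 8.75 on those numbered 4. The numbers overlapped, with the lowest values in liver and in Spleen replicate 3. Its difference from number 3 to 4 was 0.34 (SE 0.14, limma adjusted p = 0.0787). The remaining pair of H2-Ab1 probe sets, which were dimmer, stood at 0.10 and 0.02, neither passing when fitted with all probe sets. The 3 sets correlated at r = 0.58 to 0.86 with each other. Class II genes differ in sequence between mouse strains, and which allele each probe set matches was not analysed here.

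H2-Ea, the alpha chain gene of I-E, is no member but bears on the strains: C57BL/6 mice, of the b haplotype, carry a deletion that keeps it from being transcribed, whereas B10.BR mice, of the k haplotype, transcribe it. It lies at chr17:34341952-34344645 and is annotated as a transcribed pseudogene in the C57BL/6J reference. Its 3 probe sets had intensities of 7.9 to 48.5 over all arrays, below the lowest mean intensity tested, 104.7, and none was tested.

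**Figure D2:**
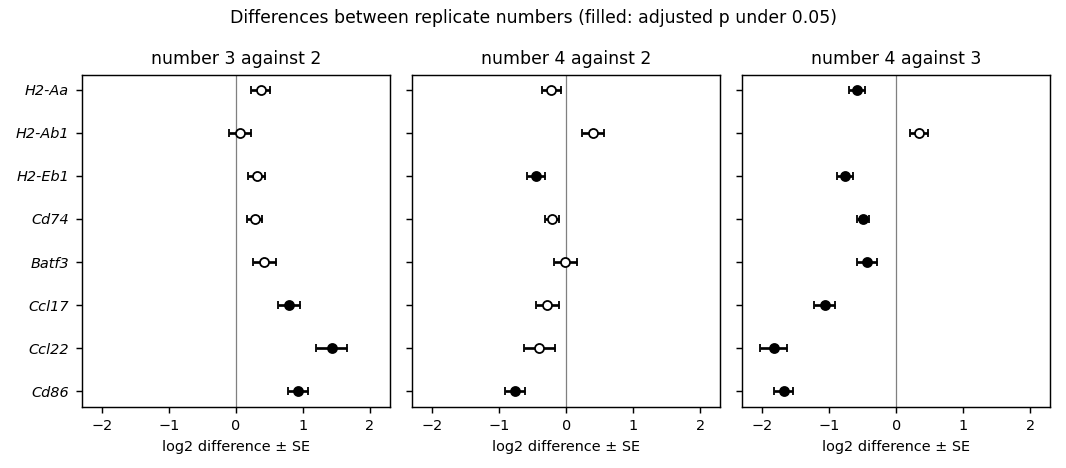
Points are limma's log2 differences between replicate numbers with organ as a term, bars are 1 SE, and filled points have an adjusted p under 0.05. In the panel of number 4 against 3, 7 of the 8 genes lie left of 0 and are filled, with Ccl22 at -1.83 and Cd86 at -1.68 farthest out.

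Of the transcription factor genes, the class II coactivator gene Ciita (chr16:10480014-10531064) was too dim to be tested. Its brighter probe set had intensities of 34.1 in MLN replicate 4 to 99.0 in Spleen replicate 4, with mean levels of 6.34, 6.18 and 6.31 on numbers 2, 3 and 4, and the other probe set had intensities of 9.7 to 61.2. The numbers overlapped on both sets, and the sets correlated at r = 0.20, so no order among arrays can be read from them.

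Batf3 (chr1:191098414-191108943) was bright on every array. Its levels were 9.54, 10.68 and 10.92 on arrays numbered 2, 10.59, 10.74, 10.88 and 10.89 on those numbered 3, and 9.81, 10.58, 10.90 and 10.08 on those numbered 4. The liver array was the lowest within each number, and the 3 PLN arrays lay within 10.88 to 10.92. Batf3 fell by 0.44 (SE 0.15) from number 3 to 4 (limma adjusted p = 0.0365), though the numbers overlapped and the difference was -0.78 in liver, -0.82 in spleen, -0.16 in MLN and 0.02 in PLN. The call was lost without Liver replicate 3 (limma adjusted p = 0.154), Liver replicate 4 (0.0854), MLN replicate 4 (0.0644), Spleen replicate 3 (0.181) or Spleen replicate 4 (0.179). Over all 3 numbers Batf3 did not pass the F-test (limma adjusted p = 0.0549).

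Ccl22, Cd86 and Ccl17 had the 3 largest differences from number 3 to 4 among the tested members. Ccl22 (chr8:94745684-94751388) had levels of 10.43, 10.78 and 10.13 on arrays numbered 2, of 11.81, 11.76, 11.54 and 11.86 on those numbered 3, and of 9.86, 10.61 and 10.18 on those of liver, MLN and PLN numbered 4. All 4 arrays numbered 3 lay above the other 7, and the highest and the lowest value of all were both from spleen. In deposited intensity these were 3572.3 in Spleen replicate 3 and 505.5 in Spleen replicate 4. Ccl22 fell by 1.83 (SE 0.20) from number 3 to 4, 3.55-fold (limma adjusted p = 3.07e-05), with -1.94 in liver, -1.15 in MLN, -1.36 in PLN and -2.86 in spleen. It was 1.43 (SE 0.23) higher on number 3 than on number 2 (limma adjusted p = 0.00184).

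Ccl17 (chr8:94809380-94812038), the neighbouring chemokine gene with the same receptor, was dimmer. Its levels were 7.32, 7.57 and 7.04 on arrays numbered 2, 7.85, 8.60, 7.68 and 8.33 on those numbered 3, and 6.96, 7.19, 7.09 and 6.91 on those numbered 4. Arrays numbered 3 again stood above all others, with PLN the lowest of the 4, and numbers 2 and 4 overlapped. Ccl17 fell by 1.07 (SE 0.16) from number 3 to 4, 2.11-fold (limma adjusted p = 0.000201), and was 0.79 (SE 0.17) higher on number 3 than on number 2 (limma adjusted p = 0.00958). The latter call missed the threshold without MLN replicate 2 (limma adjusted p = 0.0531) or PLN replicate 2 (0.0541).

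On its tested probe set, Cd86 (chr16:36568956-36666158) separated all 3 numbers. Its levels were 7.98, 8.30 and 8.22 on arrays numbered 2, 8.70, 9.17, 9.12 and 8.98 on those numbered 3, and 7.30, 7.81, 7.35 and 6.78 on those numbered 4. No array of one number overlapped an array of another on this probe set. Cd86 fell by 1.68 (SE 0.14) from number 3 to 4, 3.21-fold (limma adjusted p = 3.47e-06), with -1.40 in liver, -1.36 in MLN, -1.77 in PLN and -2.20 in spleen. It was 0.92 (SE 0.15) higher on number 3 than on number 2 (limma adjusted p = 0.00213) and differed by -0.76 (SE 0.15) between numbers 4 and 2 (limma adjusted p = 0.00358). Its other probe set differed by -1.59 from number 3 to 4 (limma adjusted p = 5.83e-05, fitted with all probe sets) and correlated with the first at r = 0.96 over the 11 arrays. On that other set numbers 2 and 4 overlapped, with MLN replicate 4 at 7.95 and Liver replicate 2 at 7.53.

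Between numbers 3 and 2, then, 3 members rose, Ccl17, Ccl22 and Cd86, where 9.29% of all tested genes rose, 9.59% fell and 18.9% changed in either direction. The class II genes H2-Aa, H2-Eb1 and Cd74 were at 0.37, 0.31 and 0.28 and did not pass (limma adjusted p = 0.0901, 0.132 and 0.0884). Liver differed in sign from MLN and PLN here: the 3 genes stood at -0.15, -0.18 and -0.12 from number 2 to 3 in liver, at 0.64, 0.69 and 0.40 in MLN, and at 0.55, 0.46 and 0.43 in PLN. Without Liver replicate 3 the number of members that rose was 6, all 3 of these class II genes among them, and without Liver replicate 2 it was 5. Between numbers 4 and 2, 2 members fell, H2-Eb1 and Cd86, where 12.4% of all tested genes fell and 27.2% changed in either direction. Counted by overlap, the arrays numbered 4 all lay below those numbered 3 for 6 members (18.3% of all tested genes), and the arrays numbered 3 lay above both other numbers for 3 members, Ccl17, Ccl22 and Cd86 (7.75%).

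Between the organs of the dendritic cells no member passed without a block. In limma's F-test over the 4 organs 0 of the 8 tested members were called (1 at an unadjusted p under 0.05, Batf3), where 0.0403% of all tested genes were called and 2.56% were at an unadjusted p under 0.05, and all 8 had an adjusted p of 1. Against the mean of the other organs, limma called 0 members in any organ, where 0.0941% of all tested genes were called in MLN and 0% in liver, PLN and spleen. At an unadjusted p under 0.05 were 2 members in liver (4.26% of all tested genes), 0 in MLN (3.71%), 1 in PLN (1.21%) and 0 in spleen (1.91%). For Cd74 the mean of the 2 spleen arrays was 10.74 ± 0.52 (SD), and the means of 3 arrays were 10.52 ± 0.27 for MLN, 10.73 ± 0.25 for PLN and 10.74 ± 0.19 for liver (SD). Those of H2-Aa lay between 9.38 and 9.44 and those of H2-Eb1 between 9.33 and 9.57, in each case within the SD of the organs.

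**Figure D3:**
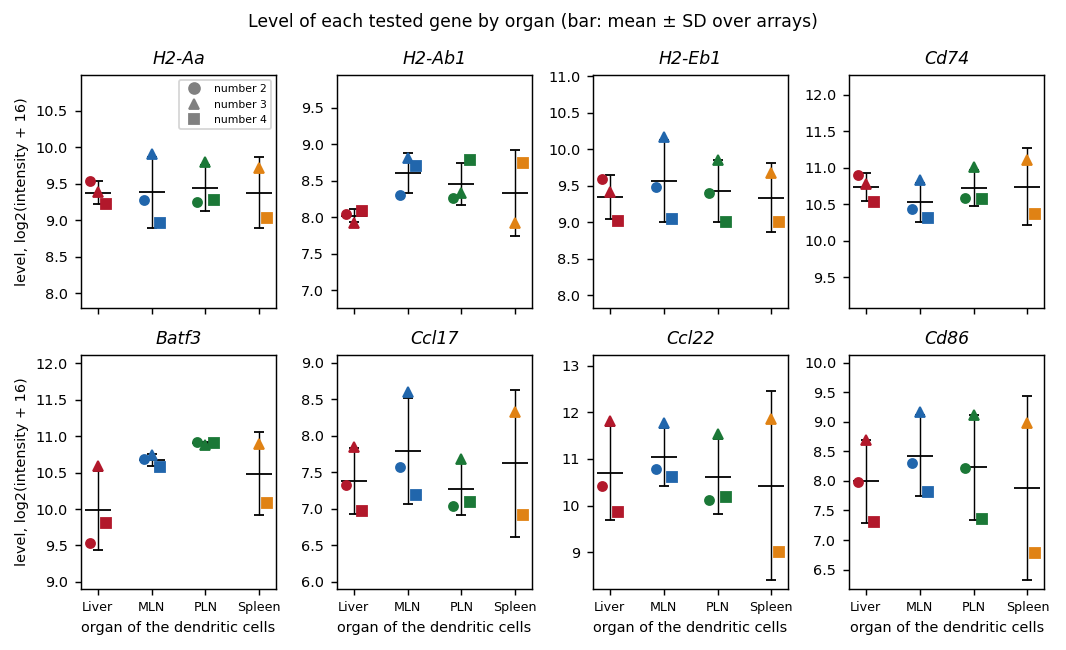
Levels, log2(intensity + 16), of the 8 tested genes by organ of the dendritic cells, with a point per array whose shape gives the replicate number, and the organ mean ± SD (n = 3, spleen n = 2). Arrays numbered 3 are the highest of each organ for Ccl17, Ccl22 and Cd86, so the SD bars of the organs overlap, while Batf3 is tight in MLN and PLN and spread in liver and spleen.

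Batf3 had the smallest unadjusted p of the members in the F-test over organs (0.0262 in limma). Over 3 arrays each it averaged 10.90 ± 0.02 in PLN, 10.67 ± 0.08 in MLN and 9.98 ± 0.55 in liver, and over 2 arrays 10.49 ± 0.58 in spleen (all SD). Liver differed from the other arrays of the same number by -1.26 for number 2, -0.25 for number 3 and -0.71 for number 4. With the replicate number as a block, Batf3 was 1 of 8 members called in liver, lower by a difference of -0.69 (SE 0.15, limma adjusted p = 0.0384), where 2.14% of all tested genes were called and 1.39% were lower. Without the block the difference was -0.71 (SE 0.22, limma adjusted p = 1). With the number as a random block no member was called in liver, where 0.632% of all tested genes were. The blocked call was lost without Spleen replicate 3 (limma adjusted p = 0.105), without PLN replicate 4 (0.0659) or PLN replicate 2 (0.094), without MLN replicate 4 (0.0691) or MLN replicate 2 (0.103), and without Liver replicate 4 (0.188) or Liver replicate 2 (-0.48, 0.273). It was not made when all probe sets were fitted (0.151). In the blocked F-test over the organs 0 members were called (3 at an unadjusted p under 0.05), where 1.98% of all tested genes were called and 15.5% were at an unadjusted p under 0.05, with Batf3 at an adjusted p of 0.0608 in limma.

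H2-Ab1 was lowest in liver for numbers 2 and 4, and for number 3 liver and spleen were level at 7.92. Its mean was 8.61 ± 0.27 in MLN, 8.46 ± 0.28 in PLN and 8.02 ± 0.09 in liver over 3 arrays each, and 8.34 ± 0.58 in spleen over 2 arrays (all SD). In the blocked fit liver stood at -0.42 (SE 0.14) and did not pass (limma adjusted p = 0.15). Its other probe sets did not share that order, since in one of them liver was the highest organ of number 2. Cd86 and Ccl17 were highest in MLN within each number, Cd86 on both of its probe sets, with blocked differences of 0.40 (SE 0.13) and 0.39 (SE 0.15) that did not pass (limma adjusted p = 0.182 and 0.276). Ccl22 was highest in MLN for numbers 2 and 4, but not for number 3, where the spleen array was. In the blocked limma fit 0 members were called in MLN, PLN and spleen, where 1.36%, 0.0134% and 0% of all tested genes were. At an unadjusted p under 0.05 were 5 members in MLN (13.5% of all tested genes), 1 in PLN (8.12%) and 2 in spleen (8.71%). Of those in MLN 4 were higher (6.46% of all tested genes) and 1 was lower (7.01%), Cd74, at -0.21 (SE 0.09).

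The share of each member's variance that went with number or organ summarises these comparisons. Over the 9 arrays of liver, MLN and PLN, which all have numbers 2, 3 and 4, the number held 90.8% of the variance of Cd86, 87.8% of that of Ccl22 and 70.1% of that of Ccl17. For H2-Eb1 it held 75.6%, for H2-Aa 64% and for Cd74 57.8%. H2-Ab1 and Batf3 ran the other way, with 63.7% and 69.3% on the organ and 17.4% and 11.4% on the number. The medians over all tested genes were 54.1% on the number and 14.5% on the organ, so 6 of the 8 members had a larger share on the number than the median gene.

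**Figure D4:**
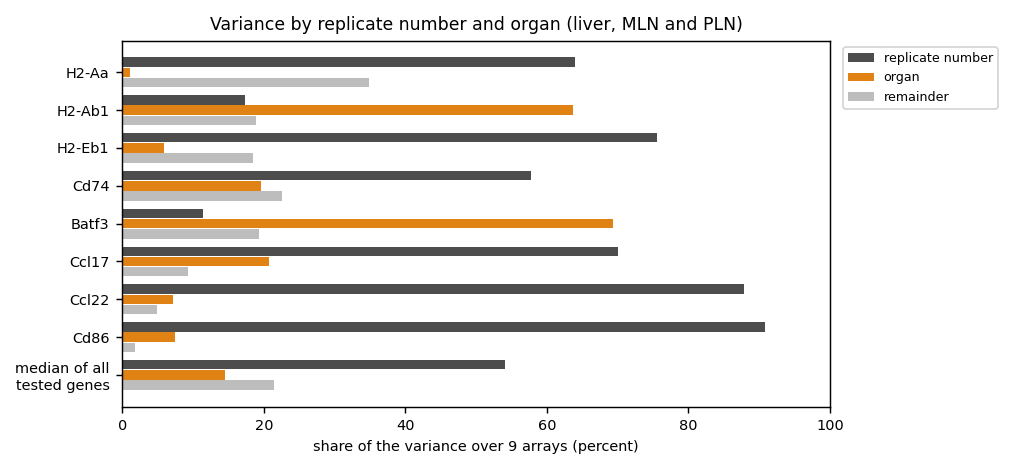
Bars give the percent of each gene's variance over the 9 liver, MLN and PLN arrays that went with the replicate number, with the organ, and with neither. The dark bars of Cd86 and Ccl22 reach 90.8% and 87.8%, and for H2-Ab1 and Batf3 the organ bar is the longest.

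Within the list, the tested members other than H2-Ab1 and Batf3 varied alike over the 11 arrays, and the class II genes did not stand apart from the rest. H2-Eb1 correlated at r = 0.89 with Cd86 and 0.84 with Ccl17, and at 0.74 with Cd74. H2-Aa and H2-Eb1 correlated at r = 0.92, H2-Aa and Cd74 at 0.89, Ccl22 and Cd86 at 0.94, and Ccl17 and Ccl22 at 0.89. H2-Ab1 correlated with H2-Aa at r = -0.22 and with Cd74 at -0.50. These values describe the 11 arrays, which share replicate numbers and a normalization. With the mean centred profile of H2-Aa, H2-Ab1, H2-Eb1 and Cd74, the members outside it correlated at 0.80 for Ccl17, 0.77 for Cd86, 0.67 for Ccl22 and 0.35 for Batf3. Of the genes in the profile, H2-Aa correlated with it at 0.94, H2-Eb1 at 0.93, Cd74 at 0.74 and H2-Ab1 at 0.10. That profile was highest in MLN replicate 3, at 0.47, and lowest in Liver replicate 4, at -0.25. Of the 10 other genes most like it, Zfp275 correlated at 0.89, Slc25a17 and Zfp830 at 0.87, Ube2w, C230091D08Rik, Snrpd3 and Pde12 at 0.86, and Psmg3, Aggf1 and Pou2af1 at 0.85.

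Other genes of the class II pathway, those of antigen processing, peptide loading and the promoter complex, were taken as a list. Of 15 measured, 14 were tested, and from number 3 to 4 limma called 4 lower and 1 higher, with a median difference of -0.16. Of all tested genes 43.3% were called in this comparison, 21% lower and 22.3% higher. Lgmn, an endosomal protease, fell by 1.74 (SE 0.12, limma adjusted p = 1.25e-06). Ifi30, a reductase that opens disulfide bonds of antigens, fell by 0.76 (SE 0.09, limma adjusted p = 3.76e-05), and Ctss, the cathepsin that trims the invariant chain, fell by 0.43 (SE 0.09, limma adjusted p = 0.00207). Ctsl, another cathepsin, was at -0.15 and did not pass (limma adjusted p = 0.168). The remaining calls, named after their values were seen, were Nfyb, a subunit of NF-Y, at -0.21 and Rfxank, a subunit of RFX, at 0.40 (limma adjusted p = 0.035 and 0.0243).

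Genes of dendritic cell maturation and costimulation other than the members were a further list. From number 3 to 4, 9 of 12 tested genes fell and 1 rose, with a median difference of -0.53, and from number 2 to 3, 8 rose and 1 fell. Of all tested genes 21% fell and 22.3% rose from number 3 to 4, and 9.29% rose and 9.59% fell from number 2 to 3. The interleukin-12 subunit gene Il12b fell by 2.20 (SE 0.13, limma adjusted p = 6.78e-07) from number 3 to 4. Cd40, which receives help from T cells, fell by 1.49 and the maturation marker Cd83 by 1.35 (limma adjusted p = 3.04e-06 and 2.41e-06). Cd274, which encodes the PD-1 ligand PD-L1, fell by 0.62 (limma adjusted p = 7.32e-05). The gene that rose, Ccr7, named after its value was seen, is also a receptor gene of T cells and stood at 0.29 (limma adjusted p = 0.00954).

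Dendritic cell lineage markers did not move one way. Of 15 measured 10 were tested, and from number 3 to 4, 3 rose and 3 fell, with a median difference of -0.16, where 22.3% of all tested genes rose and 21% fell. Itgax, the gene of CD11c, rose by 1.85 (SE 0.13, limma adjusted p = 1.68e-06), against the direction of the members, while Irf4 fell by 0.28 (limma adjusted p = 0.0142). The other falls, named after their values were seen, were those of the growth factor receptor genes Flt3, by 1.02, and Csf2rb, by 0.88 (limma adjusted p = 0.00215 and 0.0167). Id2 and Tcf4, transcriptional regulators of dendritic cell subsets, rose by 0.40 and 0.56 (limma adjusted p = 0.00113 and 0.00216). Id2 had intensities of 3343.2 to 6288.4, near those of the T cell marker Cd3g, 3323.4 to 6124. Which cells held the RNA of these lineage markers was not tested. The 5 markers below the tested range were Cd209a, Clec10a, Itgam, Xcr1 and Zbtb46, the last with mean levels of 6.77, 7.40 and 6.07 on numbers 2, 3 and 4.

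**Figure D5:**
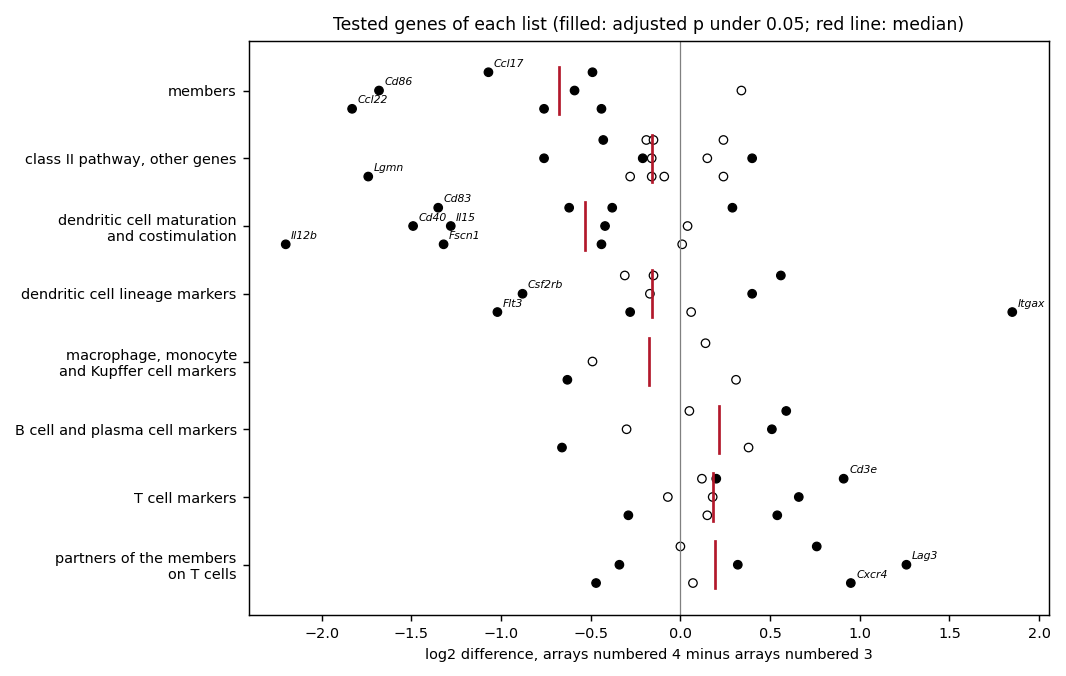
Each point is a tested gene of a list, placed at its log2 difference between arrays numbered 4 and 3, filled where the limma adjusted p is under 0.05, with a red line at the list's median and the genes farthest from 0 named. The medians lie at -0.67 for the members and -0.53 for maturation and costimulation genes, and at 0.18 for T cell markers.

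Markers of other cell types were counted in the same comparison of numbers 4 and 3, in which 43.3% of all tested genes were called, and their part in the members' differences was not tested. The mean level of the 9 T cell markers was 11.33 to 11.65 on arrays numbered 2, 11.38 to 11.54 on those numbered 3 and 11.61 to 11.83 on those numbered 4. From number 3 to 4, 4 of the 9 rose and 1 fell. Cd3e rose by 0.91, Cd3g by 0.66 and the coreceptor gene Cd8b1 by 0.54 (limma adjusted p = 2.17e-05, 3.8e-05 and 0.000212). Thy1 was at 0.15 and did not pass (limma adjusted p = 0.0579). Cd8a, the gene of the other CD8 chain, named after its value was seen, was at -0.07 and did not pass (limma adjusted p = 0.505). Cd2, an adhesion molecule gene named after its value was seen, fell by 0.29 (limma adjusted p = 0.0101). Of 8 genes of T cells whose products bind those of the members or receive their signals, 4 rose and 2 fell. Lag3, which encodes a class II receptor, rose by 1.26 (SE 0.07, limma adjusted p = 5.23e-07), the CD86 receptor gene Cd28 by 0.76, Ctla4 by 0.32 and Cxcr4, a receptor that partners CD74, by 0.95 (limma adjusted p = 1.5e-05, 0.00108 and 3.53e-05). The pair that fell, named after their values were seen, were Ccr4, the receptor gene for CCL17 and CCL22, by 0.47, and Cd4, the class II coreceptor gene, by 0.34 (limma adjusted p = 0.0166 and 0.00327). Over organs, limma's blocked F-test called 3 of these 8 genes, Cxcr4, Cd28 and Ccr4 (adjusted p = 0.0263, 0.0451 and 0.0473). It called 1 of the 9 T cell markers, Cd2 (limma adjusted p = 0.0189). Of all tested genes 1.98% were called there, and without the block 0 genes of both lists were.

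Of the other class II-bearing cells, macrophage, monocyte and Kupffer cell markers were mostly dim. The mean level of the 13 measured was 5.82 to 6.07, 5.94 to 6.20 and 5.76 to 6.13 on numbers 2, 3 and 4, and C1qa, C1qc and Marco were under an intensity of 16 on all 11 arrays. Of the 4 that were tested, 1 fell from number 3 to 4, the lysozyme gene Lyz2, at -0.63 (limma adjusted p = 0.0107), and Csf1r, Cd14 and Cd68 did not pass. Over organs, limma's F-test with the number as a block called 2 of the 4, Cd14 and Lyz2 (adjusted p = 0.0347 and 0.0435). In that test 1.98% of all tested genes were called. Against the other organs, 1 of the 4 was called higher in liver in the blocked fit, where 0.753% of all tested genes were. Without the block the F-test over organs called 0 of them. The mean level of the 11 B cell and plasma cell markers was 7.63 to 7.73, 7.46 to 7.61 and 7.45 to 7.65. Among 6 tested, Cd79b and Cd79a, the signalling chains of the B cell receptor, rose by 0.51 and 0.59 from number 3 to 4, Blnk fell by 0.66 and Ms4a1 was at -0.30 without passing. Ighm and Jchain, tested too and named after their values were seen, were bright, at intensities of 7729.8 to 11480.6 and 649.4 to 1682.1. They were at 0.05 and 0.38 and did not pass (limma adjusted p = 0.444 and 0.179). The 5 B cell and plasma cell markers below the tested range were Cr2, Ebf1, Fcer2a, Pax5 and Sdc1. Of the 7 endothelial and stromal markers, 3 were tested and 1, Pecam1, rose, by 0.57 (limma adjusted p = 0.00458).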

How the data were processed

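The authors' deposited values are linear intensities, 1 for each probe set on each array. As read from the values, the trimmed mean (2% left out at each end) is equal on all 11 arrays. The summarisation software is not given in the sources used here. Of 22690 probe sets, 64 controls were left out. The annotation gave 1 symbol for 20380, several for 691 and none for 1555, and only those with 1 were named, 20351 through the symbols of GRCm38.p6.

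Intensities were transformed as log2(intensity + 16) and quantile normalized, since array medians spanned 0.22 on the log2 scale. The probe set of the highest mean stood for each gene, which 4956 genes required. Tests used limma 3.58.1 in R 4.3.3 (lmFit, eBayes with a variance trend, two-sided, Benjamini-Hochberg over all 7436 genes), first tested on simulated data. The organ simulation held no difference between replicate numbers. It therefore does not show how the organ fit without a block performs on these arrays. The organ fit had no block and 7 residual degrees of freedom, and the fit with the replicate number as a block had 5. Numbers were compared with organ as a term.

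The replicate numbers pair the arrays: after subtraction of the organ means, correlations over genes were 0.412 to 0.731 within a number (15 pairs) and -0.708 to 0.0841 for arrays that differed in both number and organ (30 pairs). The members and all 11 lists were chosen with earlier results of these data known. Named genes of a list are the 4 of smallest p in the F-test over numbers unless said otherwise. Alternatives changed the pseudocount (1 or 64), the filter, the scaling, the block and the variance trend, and left out each array.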

Additional observations from a re-analysis of the deposited data

Results flagged for a closer look

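H2-Ab1 in Liver replicate 4, at a level of 8.09, stood apart from the other arrays numbered 4, which lay at 8.71 to 8.79, by Dixon's test of the gap to the nearest value. That test is expected to mark some groups by chance, and every tested member was examined in this way.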

How the results depend on the processing

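No member reversed its direction in a called comparison under any alternative run. With the replicate number as a block, 1 member was called in liver, Batf3, in place of 0; the random block called 0, and the block changed no other organ count. The count of members across numbers was 6, with 4 to 8 over the alternatives and 6 to 8 when an array was left out. From number 3 to 4 the count was 7, with 5 to 8 over the alternatives and 6 to 8 when an array was left out. From number 2 to 3 it was 3, with 1 when only the upper 40% of genes were tested, and 2 to 6 when an array was left out, with 5 without Liver replicate 2 and 6 without Liver replicate 3. From number 2 to 4 it was 2, with 1 without the filter on low values, in the upper 40% of genes or without the variance trend, and 1 to 2 when an array was left out. Testing the upper 40% left 5 members in the test. The causes were not tested beyond that. Among single genes, 575 values kept their side of the threshold, 17 lost their call and 7 gained one; Batf3 between numbers 4 and 3 lost its call most often, with an adjusted p of up to 0.226 in limma, without the organ term. Median centring moved the share of higher among the genes called between numbers 4 and 2 from 54.3% to 60.7%, with a median of all genes of 0.01 in both. Dim probe sets limit what can be said of Ciita.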
